A study of Cucumis melo with 18 samples.

Results

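Young fruits of the melon inbred line B-14 were set against those of the line B-6 at 10 d after pollination (DAP), through the 3 libraries of group 1_14 and the 3 libraries of group 1_6, chosen by their labels from the 18 libraries of the series. The series followed both lines by RNA-seq at 10, 30 and 45 DAP, with groups 3_14 and 3_6 at 30 DAP and 4_14 and 4_6 at 45 DAP, 3 libraries each. B-14 fruits turn orange on ripening and B-6 fruits turn white, and both are green when young. No treatment is named, the plants shared one greenhouse, and the study's methods describe flesh of fruits from 3 plants with 1 fruit each and 3 biological replicates a stage, although the labels call the tissue a blade. The sources do not say outright that each library is a single fruit, so that p-values measure the spread between these samples. Melon genes with a flesh or leaf marker role were not among the annotated genes, so this point of the labels was not checked.

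The orange of ripe melon flesh comes from β-carotene. The pathway runs from geranylgeranyl pyrophosphate through phytoene to lycopene, which is then cyclised to carotenes, modified to xanthophylls or cleaved to apocarotenoids and to the precursor of abscisic acid (ABA). Geranylgeranyl pyrophosphate also provides the tail of chlorophyll, whose ring is built by the tetrapyrrole pathway together with heme. For the young fruit the questions were which genes of these pathways and which regulators differed between the lines, and whether the difference was a shift in developmental age or a difference that the lines kept at later stages. A comparison of bulk flesh cannot tell apart fewer cells of a type and less RNA per cell.

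Each 10 DAP library held 20884608 to 22193469 counts. Levels are given as CPM, counts scaled to the size of their library, after TMM scaling, a correction for differences in RNA composition. A gene was called differentially expressed (a DEG) when edgeR's quasi-likelihood test gave an unadjusted p of at most 0.05 and the fold change was at least 2 or at most 0.5. Of 16531 genes tested, 2113 were higher and 2385 lower in 1_14 than in 1_6, together 27.2% of the genes tested, of which 12.8% were higher and 14.4% lower. With the Benjamini-Hochberg adjusted p in place of the unadjusted one, 4352 genes passed (26.3%). The same rule called 7.03% of 15501 genes between 3_14 and 3_6 and 11.4% of 15382 genes between 4_14 and 4_6. At 10 DAP, 628 genes were at least 4-fold higher and 840 at least 4-fold lower in 1_14, and 69 and 51 genes differed at least 32-fold in those directions. Pairs of 1_14 and 1_6 libraries lay 1.20 to 1.32 apart (root mean square log2 difference over 17437 genes), against 0.482 to 0.690 within 1_14 and 0.442 to 0.560 within 1_6.

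The genes with the smallest p-values differed many-fold between the lines. MELO3C020971.2, which carries no name here, had 83.7, 80.4 and 67.8 CPM in 1_14 and 0.483, 0.365 and 0.266 CPM in 1_6 (log2 fold change 7.70 ± 0.22 (SE), adjusted p = 6.44e-06, edgeR). MELO3C001561.2, also unnamed, had 77.3, 92.5 and 88.4 CPM in 1_14 and 2.03, 1.93 and 2.5 CPM in 1_6 (5.36 ± 0.16 on the log2 scale). Both were young-fruit genes of B-14: their group means at 30 and 45 DAP lay between 0 and 0.166 CPM in both lines. In the other direction stood CAX3 (MELO3C003294.2), which exchanges calcium or other cations for protons at the vacuole. It had 16.2, 16.1 and 11.7 CPM in 1_14 and 702, 680.4 and 715 CPM in 1_6 (log2 fold change -5.54 ± 0.20, adjusted p = 1.07e-05, edgeR). The unnamed MELO3C006228.2 had 2.79, 2.03 and 2.64 CPM in 1_14 and 59.4, 55.5 and 57.3 CPM in 1_6 (log2 fold change -4.49 ± 0.16), and its level in 1_14 was near that of both lines at the later stages, where the group means lay between 1.75 and 2.18 CPM.

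Among genes of carotenoid metabolism, more were called lower than higher in young B-14 fruit. The list holds the 25 genes that the study's text and tables pair with an identifier, which are not all those the study counts in the pathway. All were tested, and 2 were upregulated, 11 downregulated and 12 not called in 1_14, against the 12.8% and 14.4% of all genes. Their median log2 fold change was -0.61, against 0.01 for all genes tested. The study had put this list together from genes that differed among these samples, so that it is not independent evidence of a direction, and the same holds for the tetrapyrrole list.

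Phytoene synthase (PSY) catalyses the first committed step of the pathway. PSY MELO3C025102.2 had 4.58, 5.44 and 5.88 CPM in 1_14 and 30.4, 35.7 and 39.2 CPM in 1_6, a 6.45-fold lower mean in the line that later turns orange (log2 fold change -2.69 ± 0.17, adjusted p = 2.73e-05, edgeR). The groups did not overlap. At 30 DAP the same gene averaged 232 ± 68.3 CPM in 3_14 and 153 ± 8.27 CPM in 3_6, and at 45 DAP 310.3 ± 51.9 CPM in 4_14 and 193 ± 44.0 CPM in 4_6 (SD, n = 3 each), and neither later line difference was called. The line difference at 10 DAP was lower than that at 30 DAP by a log2 value of -3.31 (interaction, adjusted p = 9.89e-06, edgeR). The second PSY gene, MELO3C016185.2, had 4.03, 2.17 and 2.22 CPM in 1_14 and 3.28, 1.56 and 1.49 CPM in 1_6. These ranges overlapped and the gene was not called (log2 fold change 0.44 ± 0.41).

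Geranylgeranyl pyrophosphate synthase (GGPS), which makes the substrate of PSY, had 29.0, 30.8 and 21.4 CPM in 1_14 and 51.0, 55.7 and 61.1 CPM in 1_6, a log2 fold change of -1.01 ± 0.16. This value lay at the threshold, and the call was lost when replicate 3 of 1_14 (-0.87) or replicate 3 of 1_6 (-0.94) was left out. Of the 7 desaturation and isomerisation genes, only a phytoene desaturase (PDS) was called (14.3%, against 27.2% of all genes). PDS MELO3C020832.2 had 3.07, 2.03 and 2.73 CPM in 1_14 and 8.69, 8.91 and 7.28 CPM in 1_6 (log2 fold change -1.63 ± 0.23), whereas PDS MELO3C017772.2 had 43.7, 49.8 and 37.7 CPM in 1_14 and 56.8, 64.5 and 53.1 CPM in 1_6 and was not called (-0.37 ± 0.14). The 6 genes not called in this group ranged between log2 fold changes of -0.78 and 0.71.

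Of the 6 genes of cyclisation and ring modification, 3 were downregulated in 1_14 and 0 upregulated (50% called, against 27.2% of all genes). CYP97A3, which hydroxylates carotene rings in Arabidopsis on the way to lutein, had 40.3, 33.3 and 40.4 CPM in 1_14 and 100.1, 121 and 108 CPM in 1_6 (log2 fold change -1.49 ± 0.13). Lycopene epsilon cyclase (LCYE), which directs lycopene toward lutein, had 1.01, 0.876 and 2.08 CPM in 1_14 and 6.08, 6.82 and 4.57 CPM in 1_6 (-2.10 ± 0.37). The gene annotated as capsanthin/capsorubin synthase (CCS), an enzyme known from pepper, had 9.61, 5.21 and 12.3 CPM in 1_14 and 34.7, 41.8 and 52.9 CPM in 1_6 (-2.22 ± 0.30). In each of the 3 genes every 1_14 library was below every 1_6 library. Groups that did not overlap, in either direction, were found for 9846 of all 16531 genes tested. LCYE was also lower in 4_14 than in 4_6 (log2 fold change -3.22), but not called at 30 DAP (0.92 ± 0.39).

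Cleavage, ABA and strigolactone genes, the largest role group of the list, held the most DEGs of the pathway, with 2 higher and 5 lower of 9. That is 77.8% called, against 27.2% of all genes, in a list drawn from genes that differed among these samples. CYP711A1, which acts in strigolactone synthesis in Arabidopsis, had 16.7, 26.3 and 19.5 CPM in 1_14 and 114, 142 and 166 CPM in 1_6 (log2 fold change -2.72 ± 0.21, adjusted p = 5.82e-05, edgeR). NCED2 (MELO3C002744.2) and NCED6 encode 9-cis-epoxycarotenoid dioxygenases, which cleave xanthophylls to the ABA precursor, and they differed in opposite directions. NCED2 was read 3, 4 and 3 times in the 1_14 libraries and 83, 50 and 77 times in the 1_6 libraries (log2 fold change -4.45 ± 0.39). NCED6 had 37.4, 35.3 and 32.2 CPM in 1_14 and 14.3, 13.4 and 17.1 CPM in 1_6 (1.26 ± 0.14).

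**Figure D1:**
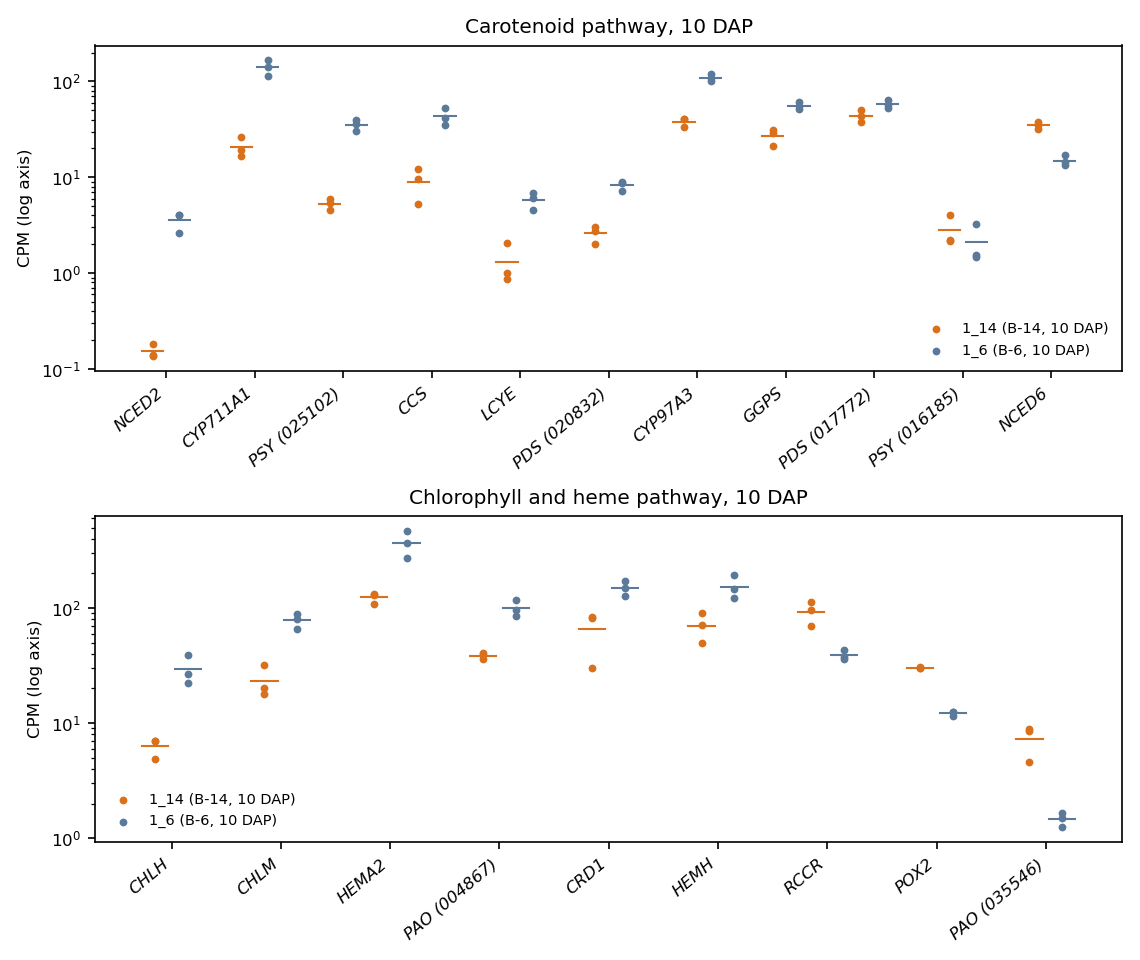
CPM on a log axis of each 10 DAP library (points) with the group mean (bars) for the named carotenoid genes (above) and chlorophyll and heme genes (below), 1_14 in orange and 1_6 in blue, ordered by log2 fold change. All but PSY MELO3C016185.2 show groups that do not overlap, as did 9846 of all 16531 genes tested. Most of the genes shown were named because they were DEGs in these libraries, which makes such separation likely. Most lie lower in 1_14, down to a log2 fold change of -4.45 for NCED2 MELO3C002744.2.

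Tetrapyrrole genes gave a mixed picture at the rate of all genes. Of 42 listed genes 41 were tested, and 3 were higher, 7 lower and 31 not called in 1_14, which is 24.4% called against 27.2% of all genes. The median log2 fold change was -0.05. In the chlorophyll branch, 4 of 13 genes were lower and 0 higher in 1_14. That is 30.8% called, near the 27.2% of all genes, and 14.4% of all genes were called lower. With the adjusted p, 3 genes of the branch were called.

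The magnesium chelatase subunit ChlH, which inserts magnesium into protoporphyrin and so opens the chlorophyll branch, had 7.0, 4.84 and 6.94 CPM in 1_14 and 39.1, 26.5 and 22.3 CPM in 1_6 for gene CHLH (log2 fold change -2.19 ± 0.25, adjusted p = 0.000285, edgeR). CHLM, the methyltransferase of the next step, had 20.2, 17.8 and 31.9 CPM in 1_14 and 89.5, 80.1 and 65.6 CPM in 1_6 (-1.72 ± 0.23). The cyclase gene CRD1 had 82.3, 30.0 and 84.1 CPM in 1_14 and 170.0, 151 and 126 CPM in 1_6 (-1.15 ± 0.35). Replicate 2 of 1_14 stood apart from the other 2 libraries of its group for CRD1, and without it the log2 fold change was -0.80 and no longer called. CHLH and CRD1 were also lower in 4_14 than in 4_6 (log2 fold changes -1.35 and -1.63), whereas at 30 DAP neither was called.

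Among the early steps, glutamyl-tRNA reductase 2 (HEMA2), the entry enzyme of the pathway, had 130.2, 108 and 133 CPM in 1_14 and 270.3, 364 and 464 CPM in 1_6 (log2 fold change -1.53 ± 0.21). Protoporphyrinogen oxidase 2 (POX2), which makes protoporphyrin, was the other call among the 13 early genes and went the other way. It had 29.8, 30.4 and 30.7 CPM in 1_14 and 12.6, 12.5 and 11.6 CPM in 1_6 (1.34 ± 0.12). Of the early genes 15.4% were thus called, against 27.2% of all genes. In the heme branch, only ferrochelatase-2 (HEMH) was called among 7 genes (14.3%). It had 70.5, 89.8 and 49.5 CPM in 1_14 and 123, 145 and 193 CPM in 1_6 (-1.10 ± 0.25), and without replicate 3 of either group the value was -0.90 and not called.

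Chlorophyll breakdown genes did not share a direction. Pheophorbide a oxygenase (PAO) opens the chlorophyll ring, and PAO MELO3C035546.2 had 4.58, 8.90 and 8.47 CPM in 1_14 and 1.26, 1.67 and 1.49 CPM in 1_6 (log2 fold change 2.35 ± 0.32). PAO MELO3C004867.2 had 40.5, 35.7 and 39.4 CPM in 1_14 and 85.0, 95.5 and 117 CPM in 1_6 (-1.33 ± 0.14). Red chlorophyll catabolite reductase (RCCR) acts directly after PAO, and RCCR MELO3C020913.2 had 112, 69.5 and 97.0 CPM in 1_14 and 37.3, 43.2 and 36.2 CPM in 1_6 (1.29 ± 0.18). The other listed RCCR gene, MELO3C020912.2, was among the breakdown genes not called, whose log2 fold changes ranged between -0.52 and 0.53. PAO MELO3C035546.2 was the only tetrapyrrole DEG of 10 DAP called in the same direction at both later stages, with 15.3 ± 2.41 CPM in 3_14 and 3.16 ± 0.198 CPM in 3_6, and 7.74 ± 0.918 CPM in 4_14 and 2.10 ± 0.774 CPM in 4_6 (SD, n = 3 each).

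**Figure D2:**
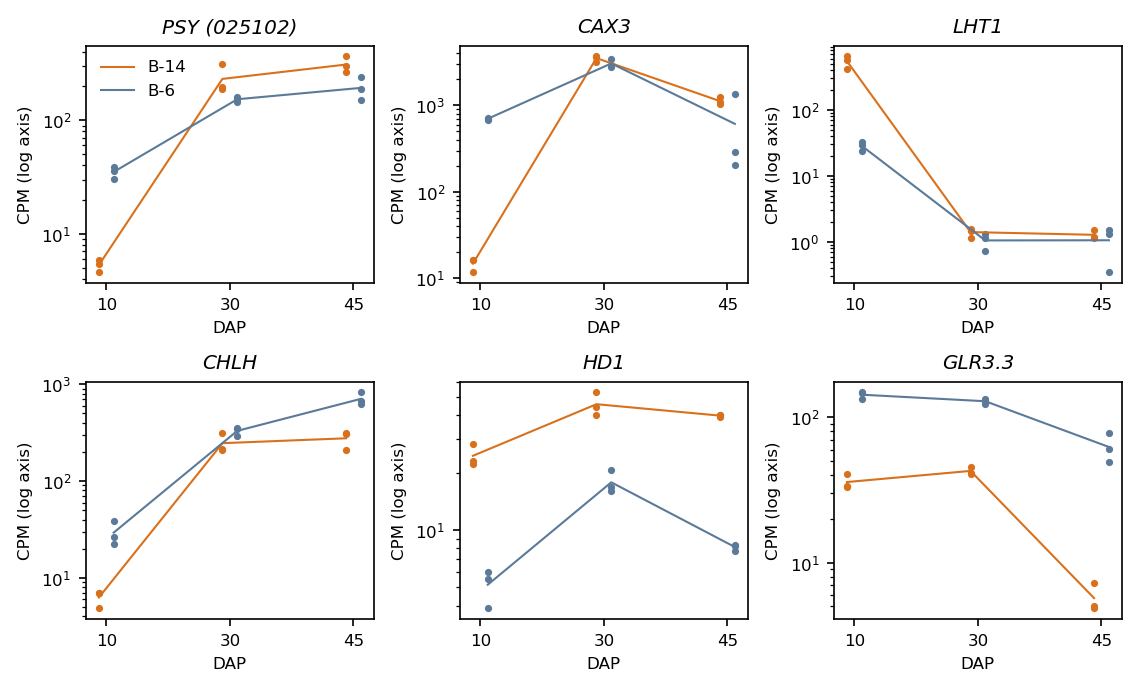
CPM on a log axis at 10, 30 and 45 DAP for 6 named genes, each point 1 library and each line the group means, B-14 in orange and B-6 in blue. PSY MELO3C025102.2, CAX3, LHT1 and CHLH differed most at 10 DAP, where PSY averaged 5.30 CPM in 1_14 and 35.1 CPM in 1_6, whereas HD1 stayed higher and GLR3.3 lower in B-14 at all 3 stages.

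The 40 transcription factors were those that the study had listed, all but one for the line contrast at 45 DAP, whose libraries are not those of 10 DAP, and many also for changes over time in B-14, whose contrasts include the 1_14 libraries. At 10 DAP, 34 were tested, of which 11 were higher and 9 lower in 1_14, or 58.8% against 27.2% of all genes, with a median log2 fold change of 0.03. Of the 32 that were higher in 4_14 than in 4_6, 28 were tested at 10 DAP, and there 9 were higher, 6 lower and 13 not called. The direction at 45 DAP was part of how the study chose the list and is no result here.

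bHLH35 had 8.83, 4.70 and 6.06 CPM in 1_14 and 145, 157 and 224 CPM in 1_6, a 26.2-fold lower mean (log2 fold change -4.71 ± 0.28, adjusted p = 2.55e-05, edgeR). The ethylene-responsive factor gene ERF061 had 45.2, 27.7 and 34.5 CPM in 1_14 and 292, 335 and 429.5 CPM in 1_6 (-3.26 ± 0.23). MYBS3, whose rice counterpart represses a sugar-controlled amylase gene, had 18.2, 26.6 and 30.1 CPM in 1_14 and 151, 253 and 292 CPM in 1_6 (-3.18 ± 0.29). All of these were on the other side at 45 DAP, where the log2 fold change of 4_14 against 4_6 was 2.04 ± 0.37 for bHLH35, 2.04 ± 0.75 for ERF061 and 1.09 ± 0.39 for MYBS3. The calls of ERF061 and MYBS3 at 45 DAP passed the unadjusted threshold only (adjusted p = 0.107 and 0.101, edgeR). ERF061 was by then at 0.929 CPM in 4_14 and 0.219 CPM in 4_6. The MADS-box gene MADS13 kept its direction, with 1.14, 2.31 and 1.25 CPM in 1_14 and 8.06, 11.5 and 6.17 CPM in 1_6 (-2.41 ± 0.36) and log2 fold changes of -1.91 at 30 DAP and -1.0 at 45 DAP, the last of which lay at the fold threshold and passed the unadjusted p only (adjusted p = 0.0571, edgeR).

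Of the 3 listed WRKY75 genes, 2 were higher in 1_14. The Arabidopsis namesake acts in phosphate starvation and leaf senescence. WRKY75 MELO3C008175.2 had 19.0, 15.8 and 21.2 CPM in 1_14 and 3.14, 3.75 and 4.89 CPM in 1_6 (log2 fold change 2.29 ± 0.22, adjusted p = 0.000126, edgeR). It was called at all 3 stages, and the difference was wider at 45 DAP, where it averaged 491 ± 7.98 CPM in 4_14 and 8.78 ± 1.77 CPM in 4_6 (SD, n = 3 each; interaction of 10 and 45 DAP -3.52, adjusted p = 6.59e-06, edgeR). The study had picked this gene for its line difference in the same 45 DAP libraries. Its call at 45 DAP and this interaction are therefore not independent evidence of a wider difference. WRKY75 MELO3C017743.2 had 5.17, 10.9 and 11.3 CPM in 1_14 and 0.338, 0.834 and 1.01 CPM in 1_6 (3.69 ± 0.46). The third, MELO3C014896.2, had 0.869, 0.922 and 1.16 CPM in 1_14 and 0.628, 0.156 and 0.744 CPM in 1_6 and was not called (0.97 ± 0.52). CRF6, a cytokinin response factor, had 1.56, 1.57 and 2.45 CPM in 1_14 and 0.145, 0.156 and 0.213 CPM in 1_6 (3.44 ± 0.43), the 1_6 values standing for 3 or 4 counts a library. NAC92 had 3.52, 1.75 and 3.15 CPM in 1_14 and 0.241, 0.573 and 0.425 CPM in 1_6 (2.79 ± 0.44).

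The 20 genes that the study had picked as most different between the lines at 45 DAP were also looked up in young fruit, with 18 tested, 5 higher and 5 lower in 1_14 (55.6%, against 27.2% of all genes) and a median log2 fold change of -0.34. Of the 10 DEGs, 7 were called in the same direction at all 3 stages and 2 were called in the opposite direction at 45 DAP. Over all DEGs of 10 DAP tested at the 3 stages the same-direction share was 4.33%, but this list was picked for a line difference at 45 DAP, which raises the share by construction. HD1, a homeobox gene, had 28.2, 23.1 and 22.2 CPM in 1_14 and 5.55, 6.04 and 3.88 CPM in 1_6 (log2 fold change 2.28 ± 0.20), and the later values were 1.37 ± 0.14 at 30 DAP and 2.30 ± 0.10 at 45 DAP. The phenolic glucoside malonyltransferase 1 gene, whose product adds malonyl groups to glucosides in Arabidopsis, had 5.40, 8.48 and 6.66 CPM in 1_14 and 0.483, 0.573 and 0.532 CPM in 1_6 (3.72 ± 0.30).

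GLR3.3, a glutamate receptor-like channel gene, had 33.1, 40.7 and 33.7 CPM in 1_14 and 133, 148 and 149 CPM in 1_6 (log2 fold change -1.96 ± 0.13, adjusted p = 3.3e-05, edgeR), with -1.58 ± 0.06 at 30 DAP and -3.45 ± 0.24 at 45 DAP. The acid phosphatase 1 gene had 12, 10.5 and 14.8 CPM in 1_14 and 41.8, 42.6 and 51.2 CPM in 1_6 (-1.83 ± 0.17), and the gap widened to -4.03 ± 0.20 at 30 DAP and -5.41 ± 0.43 at 45 DAP. The difference of its line effect between stages was itself called (2.19 for 10 minus 30 DAP, adjusted p = 9.25e-05, edgeR). DExH8, an RNA helicase gene, was the exception among those named, with 41.0, 43.3 and 53.7 CPM in 1_14 and 109.6, 101 and 96.4 CPM in 1_6 (-1.12 ± 0.13), and with 208 ± 14.6 CPM in 4_14 and 65.5 ± 0.586 CPM in 4_6 at 45 DAP (SD, n = 3 each).

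A further 32 genes had been listed by the study for their change over time in B-14, from contrasts that include the 1_14 libraries, so that their line difference at 10 DAP supports nothing on its own. All were tested, with 12 higher and 3 lower in 1_14 (46.9%, against 27.2% of all genes, 12.8% higher and 14.4% lower) and a median log2 fold change of 0.77. LHT1, an amino acid transporter gene, had 649, 422 and 575 CPM in 1_14 and 23.8, 32.7 and 29.1 CPM in 1_6 (log2 fold change 4.30 ± 0.22, adjusted p = 1.95e-05, edgeR), and it averaged 1.05 to 1.41 CPM in the 4 later groups. The germin-like protein 5-1 gene had 991, 964 and 1130.2 CPM in 1_14 and 169.8, 181 and 177 CPM in 1_6 (2.58 ± 0.15). The peroxisomal enoyl-CoA delta isomerase 1 gene, of fatty acid oxidation, had 150.1, 159 and 153 CPM in 1_14 and 45.3, 43.4 and 44.7 CPM in 1_6 (1.83 ± 0.10). All of these were highest at 10 DAP in both lines.

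CAX3, described above, belongs to the same list with PILS6 and a metallothionein gene. PILS6, a PIN-LIKES gene (in Arabidopsis these proteins carry auxin at the endoplasmic reticulum), had 71.3, 54.3 and 54.4 CPM in 1_14 and 126, 159.6 and 121 CPM in 1_6 (log2 fold change -1.14 ± 0.16). The type 3 metallothionein-like gene, for a metal-binding protein, had 2.38, 3.14 and 2.45 CPM in 1_14 and 5.07, 9.79 and 6.96 CPM in 1_6 (-1.41 ± 0.29). Both were far higher in each line at 30 DAP, at 4661 ± 519 CPM in 3_14 and 4639 ± 225 CPM in 3_6 for PILS6 and 935 ± 192 CPM in 3_14 and 473 ± 54.0 CPM in 3_6 for the metallothionein gene (SD, n = 3 each).

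**Figure D3:**
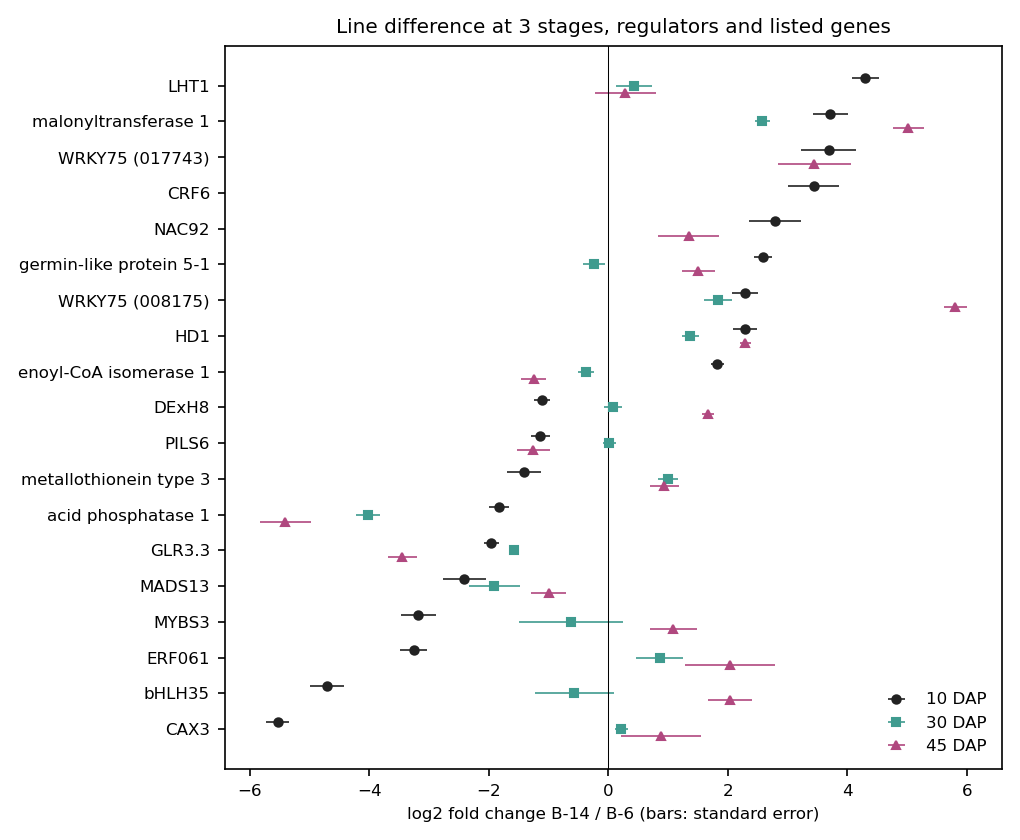
Log2 fold change of B-14 over B-6 with its standard error at 10 DAP (circles), 30 DAP (squares) and 45 DAP (triangles) for the named regulators and listed genes, and no symbol where a gene was not tested. HD1, WRKY75 MELO3C008175.2, GLR3.3 and acid phosphatase 1 stay on one side of 0, whereas bHLH35 changes from -4.71 at 10 DAP to 2.04 at 45 DAP.

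Whether the young-fruit difference was one that the lines kept was read from the line contrasts at 30 and 45 DAP, which share no library with 10 DAP. Of the 2113 genes higher in 1_14, 1730 were tested at 30 DAP, and 154 of them (8.9%) were higher in 3_14 and 73 (4.22%) lower, where 3.52% and 3.51% of all genes were called. At 45 DAP, 198 of 1711 (11.6%) were higher in 4_14 and 90 (5.26%) lower, against 5.92% and 5.43% of all genes. Those shared genes were 28.2% of the 546 genes higher at 30 DAP and 21.7% of the 911 genes higher at 45 DAP. Same-direction calls were therefore above the share of all genes, but most DEGs of young fruit were not called later.

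Of the genes lower in 1_14, also, most were not called later. At 30 DAP, 161 of 1944 (8.28%) were lower in 3_14 and 63 (3.24%) higher, and at 45 DAP, 240 of 1851 (13%) were lower in 4_14 and 161 (8.7%) higher. Of all genes, 3.51% were lower and 3.52% higher at 30 DAP and 5.43% lower and 5.92% higher at 45 DAP, so that at 45 DAP the calls in the opposite direction were also above the share of all genes. They made up 29.6% of the 544 genes lower at 30 DAP and 28.7% of the 835 genes lower at 45 DAP. Among the 3439 DEGs of 10 DAP that were tested at all 3 stages, 149 (4.33%) were called in the same direction throughout, 84 higher and 65 lower, and 2614 were DEGs at 10 DAP only (1302 higher, 1312 lower). A further 326 of these DEGs were called in the opposite direction at 30 or 45 DAP. Among genes tested at all 3 stages and not called at 10 DAP, 57 were higher and 61 lower in B-14 at both later stages. Another 10010 genes were called at no stage. Over 17437 genes, the line difference at 10 DAP had Pearson's r = 0.22 (Spearman's rho 0.12) with that at 30 DAP and 0.12 (0.04) with that at 45 DAP, as a description across genes, which are not independent replicates. The corresponding r between 30 and 45 DAP was 0.31.

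The size of the line difference changed with stage in 3737 of 17135 genes between 10 and 30 DAP (21.8%) and in 4141 of 17250 between 10 and 45 DAP (24%), by the interaction of line and stage (adjusted p of at most 0.05 and at least 2-fold, edgeR). Of the carotenoid genes, 13 of 25 were called in each interaction. The B-14 value at 10 DAP was the lower in 10 of them relative to 30 DAP and in 11 relative to 45 DAP. This was the direction of 11.6% and 11.9% of all genes. The study had drawn the carotenoid list from contrasts that include the 10 DAP libraries of both lines, which also enter these interactions. The choice of genes can thus raise these counts, which are no independent evidence of an excess or a direction. Of the transcription factors, 21 of 39 were called between 10 and 45 DAP, all with the lower relative B-14 value at 10 DAP. That list was chosen at 45 DAP, mostly for genes higher in 4_14, which is part of this contrast.

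Some of the kept differences were of the on/off kind. A total of 18 genes had at least 50 counts in every 1_14 library and at most 3 counts in every 1_6 library. Of these, 15 stayed at or under 3 counts in all 9 B-6 libraries of the series, and 8 had at least 50 counts in every B-14 library at all 3 stages. In the other direction there were 9 such genes, of which 5 stayed at or under 3 counts in all 9 B-14 libraries and 4 were on in every B-6 library. The deposited table gives none of them a name.

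**Figure D4:**
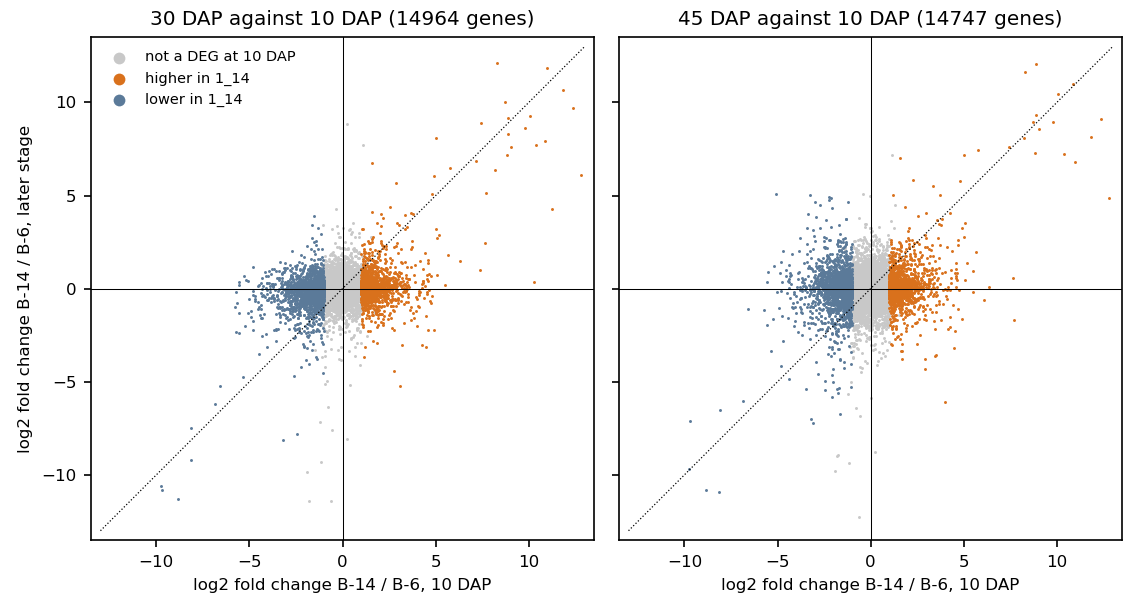
Log2 fold change of B-14 over B-6 at 30 DAP (left) and 45 DAP (right) against that at 10 DAP, each point a gene tested at both stages, orange where higher and blue where lower in 1_14, the dotted line marking equal values. Most colored points lie along the horizontal axis, and 154 of 1730 genes higher in 1_14 were also called higher in 3_14. Large differences at 10 DAP were not always of that size later: MELO3C000655.2 went from -5.56 at 10 DAP to -1.31 at 30 DAP and -1.94 at 45 DAP.

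A shift in developmental age would place one line nearer to the later stages. The distance of each 10 DAP library to the mean profile of 30 DAP fruit, taken equally over both lines, was 2.06, 2.10 and 2.09 in 1_14 and 2.09, 2.10 and 2.12 in 1_6 (root mean square log2 difference over 17437 genes). The groups overlapped, and the means of 2.08 ± 0.02 in 1_14 and 2.11 ± 0.02 in 1_6 (SD, n = 3 each) differed by -0.02 (exact permutation test, two-sided, p = 0.2). To the 45 DAP profile the distances were 2.24, 2.29 and 2.29 in 1_14 and 2.33, 2.35 and 2.38 in 1_6. Here every 1_14 library was nearer, by -0.08 between the means, which is -3.5% of the distance of 1_6 (exact permutation test, two-sided, p = 0.1, the smallest p that 3 against 3 libraries allow).

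The direction depended on which line's later fruit was taken as the end point. Measured to 30 DAP fruit of B-14, the 1_14 libraries were nearer (mean 2.11 in 1_14 and 2.18 in 1_6, difference -0.06, p = 0.1, exact permutation test), and measured to 30 DAP fruit of B-6 they were slightly farther (2.11 in 1_14 and 2.09 in 1_6, difference 0.02, p = 0.2, exact permutation test). To 45 DAP fruit, 1_14 was nearer in both cases, by -0.10 for B-14 and -0.06 for B-6 (p = 0.1 each, exact permutation test). All of these differences were small beside the distance between the lines at 10 DAP, at a median of 1.24 over the 9 pairs of libraries.

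**Figure D5:**
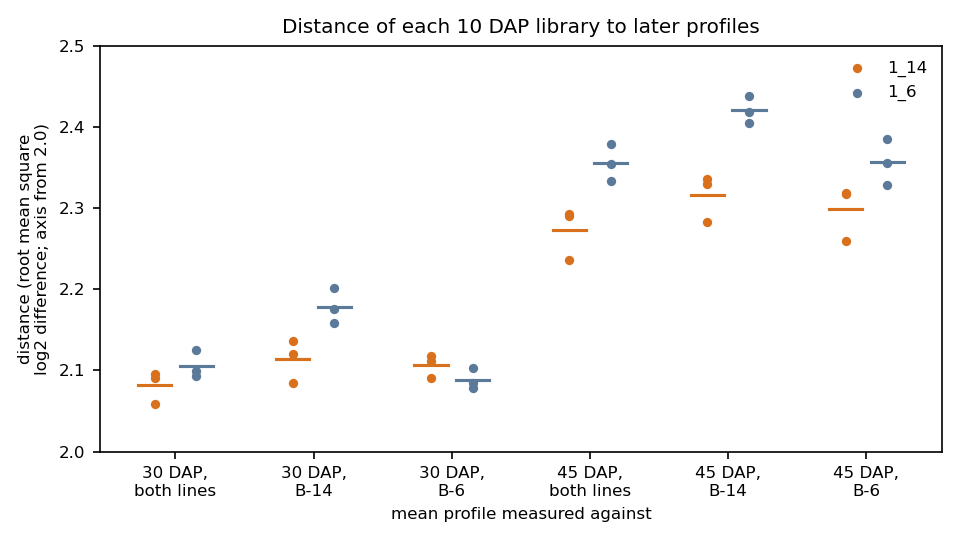
Root mean square log2 distance of each 10 DAP library (points, bars for group means) to the mean profiles of 30 and 45 DAP fruit, of both lines or of each, 1_14 in orange and 1_6 in blue, on an axis that starts at 2.0. The groups are apart at 45 DAP (means 2.27 in 1_14 and 2.36 in 1_6) and overlap for the 30 DAP profile of both lines.

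Change between 30 and 45 DAP gave another view with no library in common with 10 DAP. Of 1900 genes lower in 1_14 that were tested in B-14, 21.6% fell from 30 to 45 DAP in that line (11.9% of all genes) and 7.89% rose (8.1% of all genes). In B-6, 31.1% of 1930 such genes fell (15.4% of all genes) and 12.1% rose (12.4% of all genes). Of the genes higher in 1_14, 13.2% rose and 14% fell in B-14 (8.1% and 11.9% of all genes), and 18.7% rose and 17.7% fell in B-6 (12.4% and 15.4% of all genes). In both lines, later movement in the direction of the 1_14 difference was thus above the share of all genes in both classes, most so among the genes lower in 1_14. Among the genes higher in 1_14, movement in the opposite direction was also above that share in both lines. In B-14 more of them fell (14%) than rose (13.2%). Over 17437 genes, Pearson's r between the line difference at 10 DAP and the later change was 0.08 for B-14 and 0.12 for B-6.

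Whether the named genes shared an order of age was not tested. The changes from 10 DAP within each line use the same 10 DAP libraries as the line contrast, so that only values are set side by side. They are given for 6 of the named genes, chosen after their values were seen. CAX3 and LHT1 were also listed by the study for their change over time in B-14, in contrasts that include the 1_14 libraries. PSY MELO3C025102.2 was lower in 1_14 (-2.69) and its log2 change to 30 DAP was 5.47 in B-14 and 2.13 in B-6. CAX3 was lower in 1_14 (-5.54), with later changes of 7.92 in B-14 and 2.13 in B-6. LHT1 was higher in 1_14 (4.30), with later changes of -8.58 in B-14 and -4.76 in B-6. For these genes the 1_14 libraries stood farther from the 30 DAP level than the 1_6 libraries. CYP711A1 was lower in 1_14 (-2.72) with later changes of -4.67 in B-14 and -6.77 in B-6. ERF061 was lower (-3.26), with changes of -4.83 in B-14 and -8.99 in B-6, and CYP97A3 was lower (-1.49), with changes of -0.07 in B-14 and -1.65 in B-6. For these the 1_14 libraries stood nearer to the 30 DAP level.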

How the data were processed

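Total RNA of melon flesh was sequenced as paired-end reads in 18 libraries, 3 in each of 6 groups. According to the study's methods the authors trimmed reads with Trimmomatic and aligned them to the melon genome with HISAT2; the counting tool, its use of strand and its handling of reads shared by near-identical gene copies are not given in the sources used here. The deposited table holds raw counts of 22394 genes by the authors, whole numbers with no normalization. Members and gene lists were chosen with earlier results of these data known. The table carries no gene names: names are those printed in the study. The RefSeq table of 28628 genes matched 0 of the identifiers, so no sequences are shown.

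Each pair of groups was fitted on its own 6 libraries with edgeR 4.0.16 (R 4.3.3) after filterByExpr and TMM scaling, with the study's DEG threshold (p of at most 0.05 and at least 2-fold). Interactions used the 12 libraries of both stages and Benjamini-Hochberg adjusted p. Distances used log2 CPM with a prior count of 2. Genes were named by a rule: the 2 DEGs of smallest p in each direction with groups that did not overlap; up to 3 DEGs per pathway role and every PSY and PDS; up to 4 transcription factors and up to 3 listed genes per direction. The other list members are given as counts and ranges. On simulated counts with 200 genes changed 4-fold, the 10 DAP fit recovered 199 and called 142 of 16574 genes falsely, and with no change it called 138. The interaction fit of 10 and 30 DAP recovered 163 of 200 such genes and called 6 of 17030 falsely. A missing interaction call therefore does not show that the line differences were equal. Replicate pairs within 1_14 and 1_6 differed beyond binomial noise in 41.5% to 64.7% of genes, so that all libraries counted as separate. Alternatives covered DESeq2 1.42.0, normalization, filters, all 18 libraries in 1 fit, the replicate block, the adjusted p and leaving out each library. Figures were drawn with matplotlib 3.10.9.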

Additional observations from a re-analysis of the deposited data

Results flagged for a closer look

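For 36 of the 42 named genes, the line difference at 10 DAP differed from that at a later stage by the interaction of line and stage (edgeR's quasi-likelihood test, adjusted p of at most 0.05 and at least 2-fold). Of all genes, 21.8% were called against 30 DAP and 24% against 45 DAP. Nearly all of the named genes were chosen as DEGs from the 10 DAP libraries, which also enter the interactions. That choice raises the count and favours the direction seen at 10 DAP, so that neither is independent evidence. The values are the log2 line difference (B-14 over B-6) at 10 DAP minus that at the later stage, so that a negative value means a relatively lower B-14 level in young fruit, and all values share the 10 DAP libraries.

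Among the genes of smallest p, the difference was -5.76 against 30 DAP and -6.41 against 45 DAP for CAX3 and -4.72 and -4.26 for MELO3C006228.2. It was 8.14 and 11.95 for MELO3C020971.2 and 9.2 and 7.65 for MELO3C001561.2, fitted values that rest on later libraries at or near 0 counts and give no bound on the fold.

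Most of the named carotenoid genes, which were mainly lower in 1_14 when chosen, had a relatively lower B-14 level at 10 DAP. PSY MELO3C025102.2 differed by -3.31 against 30 DAP and -3.37 against 45 DAP, PDS MELO3C020832.2 by -1.48 and -1.78, CYP97A3 by -1.55 and -1.58, CCS by -1.46 and -1.65, and CYP711A1 by -2.07 and -3.1. NCED2 MELO3C002744.2 gave -6.37 and -5.3, with later libraries at 0 to 8 counts. Against 30 DAP only, GGPS differed by -1.23 and LCYE by -3.03. The exceptions were NCED6, at 1.06 against 30 DAP, and PSY MELO3C016185.2, at 1.39 against 45 DAP.

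Of the tetrapyrrole genes, CHLM differed by -2.03 against 30 DAP and -1.03 against 45 DAP and RCCR MELO3C020913.2 by 1.47 and 2.41. Against 30 DAP only, CHLH differed by -1.79, CRD1 by -1.48 and PAO MELO3C004867.2 by -1.65. Against 45 DAP only, HEMA2 differed by -2.75, HEMH by -1.28 and POX2 by 1.2.

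Of the transcription factors, bHLH35 differed by -4.15 against 30 DAP and -6.74 against 45 DAP and ERF061 by -4.13 and -5.29. Against 45 DAP only, MYBS3 differed by -4.26, WRKY75 MELO3C008175.2 by -3.52 and MADS13 by -1.4.

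Of the other listed genes, acid phosphatase 1 differed by 2.19 against 30 DAP and 3.59 against 45 DAP, phenolic glucoside malonyltransferase 1 by 1.13 and -1.29, DExH8 by -1.2 and -2.78, and GLR3.3 by 1.5 against 45 DAP only. LHT1 differed by 3.86 and 4.02, peroxisomal enoyl-CoA delta isomerase 1 by 2.19 and 3.09, the germin-like protein 5-1 gene by 2.81 and 1.08 and the type 3 metallothionein-like gene by -2.41 and -2.35. PILS6 differed by -1.17 against 30 DAP only.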

How the results depend on the processing

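The 4498 DEGs of 1_14 against 1_6 became 4479 with DESeq2 and 4518 with library size alone, where the share of calls that were higher in 1_14 went to 52.5% in place of 47%; in neither setting did a DEG change sign. Keeping only genes counted 10 times or more in each library, which leaves fewer genes to test, 12 transcription factors in place of 20 were called and 68 genes in place of 149 were called in the same direction at all 3 stages. Leaving out each 10 DAP library in turn gave 4439 to 4646 DEGs (2044 to 2164 higher, 2336 to 2487 lower), 12 to 14 carotenoid, 8 to 11 tetrapyrrole and 19 to 21 transcription factor DEGs, 9 to 11 and 14 to 17 of the genes listed at 45 DAP and over time, 140 to 167 same-direction genes, and 3541 to 3729 and 3800 to 4128 interactions with 30 and 45 DAP. The difference in distance to 30 DAP lay between -0.0311 and -0.0127 and that to 45 DAP between -0.0934 and -0.0642, and for 30 DAP the groups did not overlap with a prior count of 0.5 (-0.0267), without the line DEGs of 30 and 45 DAP (-0.0423), without replicate 2 of 1_14 (-0.0311) or without replicate 1 of 1_6 (-0.0305). Without 1 library, the line contrasts gave 1043 to 1617 DEGs at 30 DAP and 1594 to 2120 at 45 DAP. Of 583 combinations of a named gene and a setting, 574 kept their call, 9 lost it and 0 changed sign; those lost belong to GGPS, HEMH, CRD1 and HEMA2, the last in the fit of all 18 libraries only.

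The replicate numbers gave no clear pairing of the samples: deviations of same-numbered libraries correlated at 0.198, 0.010 and -0.086. The best correlations with another number were -0.096, 0.138 and 0.136. Values this weak cannot exclude a pairing. With the replicate block, 4467 DEGs were called at 10 DAP and 144 in the same direction at all 3 stages.

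With 3 libraries a group, the exact test of a distance cannot go below p = 0.1, and genes with few counts, such as NCED2 MELO3C002744.2 in 1_14, have wide counting error.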
